A study of Mus musculus with 6 samples.

Results

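The 48 genes described here encode nucleolar proteins and factors that build ribosomes. They were taken by symbol from a list of such genes, chosen with earlier results of these data known. Shares of all tested genes given beside their counts therefore describe the list and do not test it. Each of the 48 had exactly 1 entry among the 23850 gene entries of every table, and all 48 were among the 10096 genes tested. They were sorted by role into 9 proteins of small nucleolar ribonucleoprotein particles (snoRNPs), 17 factors of the small ribosomal subunit, 17 factors of the large subunit, and 5 genes of RNA polymerase I (Pol I) and general nucleolar proteins. Messenger RNA was sequenced from 3 cultures given CHIR99021, an inhibitor of the GSK3 kinases, and from 3 cultures given its solvent DMSO. The mice were wild type C57BL/6J, and both groups were germinal centre B cells made in vitro: naive follicular B cells spent 4 days on a CD40L-expressing feeder layer in IL-4 (1 ng/ml). Treatment took place on the same kind of feeder over 36 h in IL-21 (10 ng/ml), and the labels give 3 uM beside CHIR99021 and beside DMSO alike. The sources do not say how many animals gave the cells or how treated cells were purified from the feeder, which limits the cultures as a model of germinal centre cells in an animal.

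Ribosome production starts in the nucleolus, where Pol I transcribes a long precursor that is cut and modified into the 18S, 5.8S and 28S ribosomal RNAs. SnoRNPs guide the chemical modification and part of the cutting of this precursor, while separate sets of assembly factors shape the small and the large subunit before export to the cytoplasm. Dividing B cells need many ribosomes, and genes of this pathway are well known targets of the transcription factor MYC.

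With CHIR99021, 31 of the 48 genes rose and 0 fell, and 17 did not pass the test. Levels are FPKM, the fragments of a gene scaled for transcript length and library total, and changes were tested with limma on log2(FPKM + 1), with p-values adjusted by Benjamini-Hochberg over all 10096 tested genes and a threshold of 0.05. By the same test 8.13% of all tested genes rose and 13.3% fell. Of all calls 37.9% were thus higher, or 48.7% with upper-quartile and 51.2% with quantile scaling of the libraries. The changes were modest in size: the median member changed by 0.54 on the log2 scale, against a median of -0.04 over all tested genes, and the ratio of mean FPKM had a median of 1.47 and ran from 0.964 to 1.75. In 34 of the 48 genes the log2 change was above 0.404, the 90th percentile over all tested genes. Among the 48 genes, 47 had a positive log2 change, the exception being the helicase gene Ddx52, while 45.2% of all tested genes had one.

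**Figure D1:**
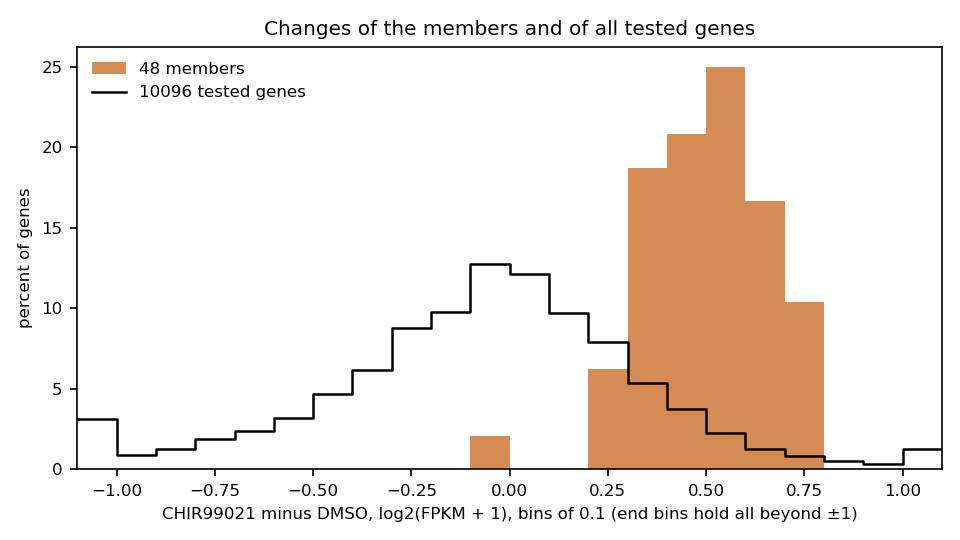
Percent of genes (vertical axis) per bin of the CHIR99021 minus DMSO difference in log2(FPKM + 1) (horizontal axis), for the 48 ribosome biogenesis genes (bars) and the 10096 tested genes (line). The bars lie between 0.2 and 0.8 except for 1 gene just below 0, whereas the line is centred near 0.

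The 3 CHIR99021 libraries all lay above the 3 DMSO libraries in 42 of the 48 genes, against 17.0% of all tested genes. The opposite order was seen in 0 of the 48 and in 23.1% of all tested genes, and the groups overlapped in 6 of the 48. The replicate numbers of the titles paired the libraries, since deviations from the group means were shared by libraries of the same number. In each of replicates 1, 2 and 3, 47 of the 48 genes were higher in the CHIR99021 library than in the DMSO library of that number, against 44.6%, 47.6% and 45.0% of all tested genes. With the replicate number as a block, 45 members rose and 0 fell, against 18.4% and 24.4% of all tested genes. The 14 genes that passed only with the block had adjusted p from 0.0578 to 0.114 without it and from 0.000214 to 0.0355 with it. Over all settings tried the highest adjusted p of each of them ran from 0.161 to 0.288.

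The fits that left out 1 library had no block, so 1 replicate number stayed in 1 group only. The count of calls was lower in most of these fits than with all libraries, and the cause was not tested. It was 7 without CHIR99021 replicate 3, 10 without CHIR99021 replicate 2, 15 without DMSO replicate 1 and 15 without DMSO replicate 3, and 31 or 32 without the remaining libraries. Of all tested genes 3.25%, 4.35%, 5.06% and 5.01% were called higher in the first 4 of these fits, in the order given, against 8.13% with all libraries. Without CHIR99021 replicate 1 and without DMSO replicate 2 these shares were 6.13% and 7.01%. Of the 31 genes that rose, 7 passed in each of the 6 fits that left out 1 library: Npm1, Nob1, Noc4l, Nop58, Nop10, Mrto4 and Wdr12. At most 3.25% of all tested genes can have been called higher in all 6, the share called without CHIR99021 replicate 3. The median change of the 48 genes stayed between 0.39 and 0.60 in these fits. It was 0.60, 0.44 and 0.49 without CHIR99021 replicates 1, 2 and 3. Without DMSO replicates 1, 2 and 3 it was 0.39, 0.58 and 0.53. Over all settings tried, the lowest adjusted p of each of the 31 genes ran from 0.00013 to 0.0145 and the highest from 0.011 to 0.159. Without the filter on low levels, Fbl, Nop56, Gar1, Utp15, Wdr75, Ddx18, Gnl2, Noc3l, Rrp1b, Ddx21 and Polr1b lost their calls, and without a variance trend Fbl, Gar1, Brix1, Ddx18, Gnl2, Pes1, Rrp1b and Ddx21 did.

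**Figure D2:**
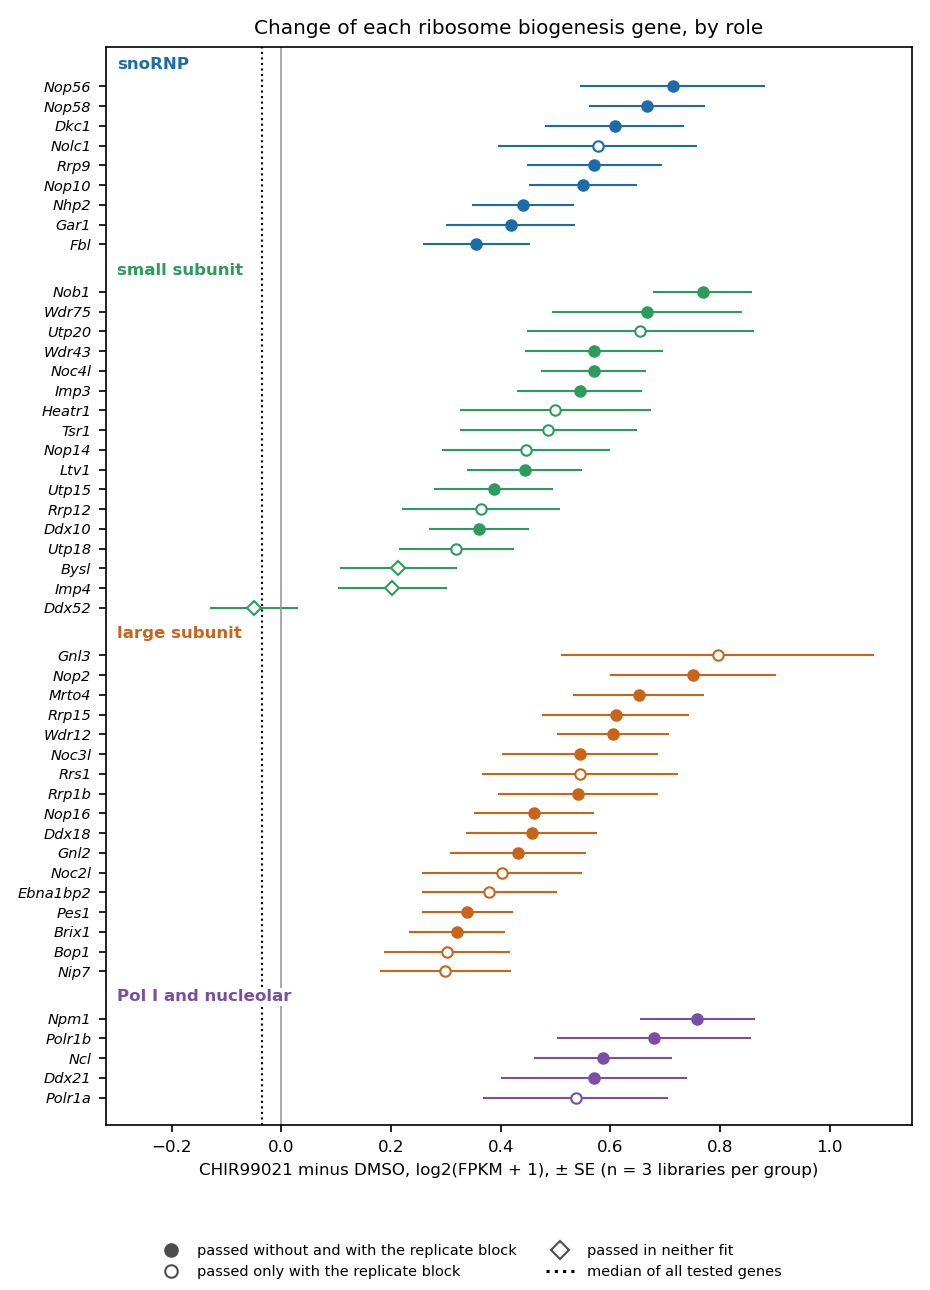
Difference between CHIR99021 and DMSO in log2(FPKM + 1) with its SE for each of the 48 genes (n = 3 libraries per group), ordered within each role. Filled circles are the 31 genes that passed without and with the replicate block, open circles the 14 that passed only with it, and diamonds the 3 that passed in neither fit, which are small subunit factors.

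Summed over the 48 genes, the level was 4305, 5019 and 4915 FPKM in CHIR99021 replicates 1, 2 and 3, against 2876, 3271 and 3198 FPKM in DMSO replicates 1, 2 and 3. These sums were 0.698%, 0.902% and 0.798% of all FPKM of the CHIR99021 libraries, against 0.466%, 0.620% and 0.531% of the DMSO libraries. Nucleophosmin, Npm1, alone made up 39.4% of the summed mean level, and without it the sums were 2513, 3016 and 2868 FPKM in CHIR99021 and 1782, 2109 and 2005 FPKM in DMSO. The groups did not overlap in any of these sums. Within both groups, replicate 1 was the lowest for most genes (44 of 48 among the CHIR99021 libraries and 40 of 48 among the DMSO libraries), and replicate 2 the highest for most (36 and 31 of 48).

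**Figure D3:**
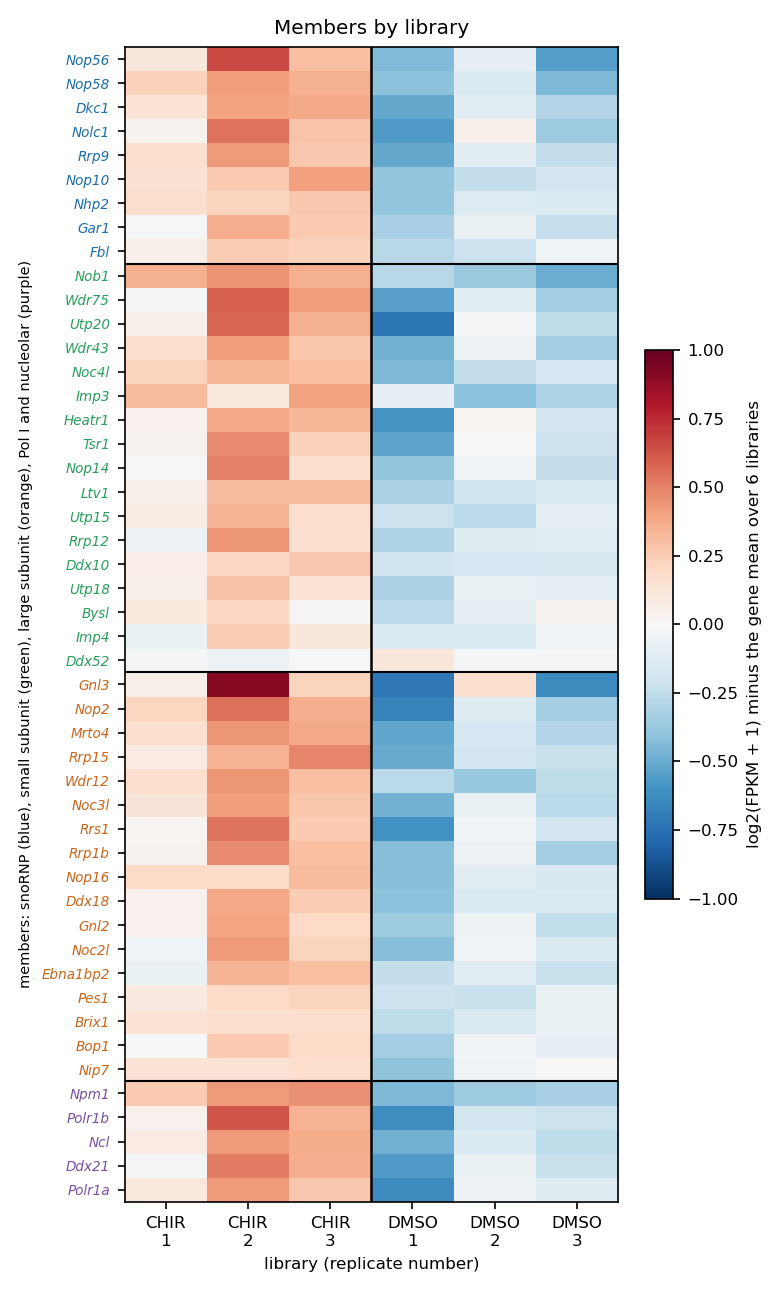
Each gene's log2(FPKM + 1) minus its mean over the 6 libraries (colour), for CHIR99021 replicates 1 to 3 on the left and DMSO replicates 1 to 3 on the right. Most rows are red in CHIR99021 and blue in DMSO, with replicate 1 lowest in both groups for most genes.

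Markers of other cells were read in the same libraries. Of 8 B cell markers 7 fell and 0 rose, with a summed level of 1566 to 1828 FPKM in CHIR99021 and 3205 to 4293 FPKM in DMSO, while of 6 germinal centre markers, all above the level filter, 1 fell and 0 rose (summed level 116 to 125 FPKM in CHIR99021 and 129 to 135 FPKM in DMSO). The gene that fell, Fas, passed in 0 of the 6 fits that left out 1 library. With the replicate block Gcsam rose and Bcl6 and Fas fell (adjusted p = 0.0189, 0.00307 and 0.00745). The part of these markers in the results for the 48 genes was not tested. Of 6 fibroblast genes that feeder cells would express, 4 were tested and 0 were called by limma, also 0 at an unadjusted p under 0.05, while with the replicate block 3 fell, with sums of 231, 87.1 and 47.4 FPKM in CHIR99021 replicates 1, 2 and 3 and 296, 102 and 54.5 FPKM in DMSO replicates 1, 2 and 3. The summed feeder genes were thus highest in replicate 1 of both groups, where most of the 48 genes were lowest within their group, and their part in the result was not tested. The 5 T cell markers present summed to 0.0355 to 0.826 FPKM in CHIR99021 and 0.0319 to 1.54 FPKM in DMSO, and Cd3e and the macrophage gene Cd14 were listed at 0 in every library. The 5 macrophage and dendritic markers present summed to 15.005 to 18.001 FPKM in CHIR99021 and 35.8 to 44.2 FPKM in DMSO, mostly from Flt3, the 1 of them that fell. Beside Flt3 and Cd14, Csf1r and Itgax averaged only 0.046 and 0.301 FPKM over the 6 libraries, and Lyz2 averaged 1.27 FPKM and was not called. Of 6 proliferation genes (Mki67, Top2a, Ccnb1, Pcna, Mcm2 and Cdk1), which are no part of the 48, 0 were called by limma and 1, Mcm2, had an unadjusted p under 0.05. With the replicate block Mcm2 rose and Pcna and Top2a fell, and the sums over the 6 were 822 to 874 FPKM in CHIR99021 and 873 to 976 FPKM in DMSO. In bulk libraries such as these, fewer cells of a type and less RNA per cell cannot be told apart.

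Because most of the 48 genes changed in 1 direction, their promoters were searched for short DNA words, using RefSeq windows on GRCm38.p6 from 250 bases before to 50 bases after each annotated start. Of the 48 genes 42 matched, with 46 windows, and Bop1, Fbl, Gnl2, Npm1, Rrp12 and Rrs1 did not. The E-box word CACGTG, which MYC and its partner MAX bind and which reads the same on both strands, was present in 8 of the 46 windows (17.4%), against 10.5% of the windows of tested genes and 7.15% of all 32851 windows. It lay before the start in Nop2, Utp18 and Imp4, whose last 150 bases before the start are shown because they hold the word, with the E-box in capitals. The windows are chr6:125131733-125131882 on the plus strand, chr11:93885767-93885916 on the minus strand and chr1:34439679-34439828 on the plus strand.
Nop2: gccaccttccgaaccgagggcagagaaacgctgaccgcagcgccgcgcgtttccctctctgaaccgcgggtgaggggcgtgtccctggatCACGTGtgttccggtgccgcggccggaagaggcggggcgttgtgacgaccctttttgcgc
Utp18: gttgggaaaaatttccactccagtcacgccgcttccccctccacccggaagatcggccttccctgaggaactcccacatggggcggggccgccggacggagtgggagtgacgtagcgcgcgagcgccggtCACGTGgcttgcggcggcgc
Imp4: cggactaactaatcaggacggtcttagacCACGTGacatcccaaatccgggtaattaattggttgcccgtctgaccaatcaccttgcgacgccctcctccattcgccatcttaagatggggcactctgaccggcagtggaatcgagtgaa

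In Pes1, Ltv1, Tsr1, Wdr43 and Utp20 the E-box lay within the 50 bases after the start, and 30 bases around it are shown for comparison of the flanks, with the word in capitals. The sites are chr11:3963965-3963994, chr11:74898092-74898121 and chr17:71616220-71616249 on the plus strand and chr10:13193092-13193121 and chr10:88826765-88826794 on the minus strand.
Pes1: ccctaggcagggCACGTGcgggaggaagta
Tsr1: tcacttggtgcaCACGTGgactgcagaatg
Wdr43: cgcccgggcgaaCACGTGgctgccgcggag
Ltv1: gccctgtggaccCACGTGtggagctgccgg
Utp20: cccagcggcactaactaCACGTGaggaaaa

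Of these 8 genes, Nop2, Pes1, Wdr43 and Ltv1 rose, Utp18, Tsr1 and Utp20 passed only with the replicate block (adjusted p = 0.0657, 0.0686 and 0.059 without it), and Imp4 passed in neither fit. Their log2 changes ran from 0.20 in Imp4 to 0.75 in Nop2. Myc itself had 37.9, 42.97 and 33.3 FPKM in CHIR99021 and 46.2, 32.6 and 32.6 FPKM in DMSO. The groups overlapped (log2 change 0.05 ± 0.16 SE, limma adjusted p = 0.877). These are RNA levels and do not give the amount of MYC protein.

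Further words were searched on both strands. CCGGAAG, the core of sites for ETS family factors, was present in 16 of the 46 windows (34.8%) from 15 of the 42 genes, against 19.7% of the windows of tested genes and 8.86% of all windows. Examples from the H/ACA snoRNP genes are 30 bases of Nhp2 (chr11:51619739-51619768, plus strand) and of Gar1 (chr3:129831421-129831450, minus strand, where the word reads from the other strand), with the word in capitals.
Nhp2: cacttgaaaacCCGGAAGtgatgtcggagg
Gar1: gcgccgccacaCTTCCGGaaacgtcgcgta
CTTTGAT, a word of sites for the TCF/LEF partners of beta-catenin, was present in 1 window (2.17%), that of Noc4l, against 2.35% of the windows of tested genes and 3.73% of all windows. That site, at chr5:110653436-110653465 on the minus strand, is shown since beta-catenin is a substrate of GSK3.
Noc4l: tctccggcgctCTTTGATgacgtacgccgc
The words differ in how often they occur in promoters of expressed genes at large, and a match is not a bound site. No printed E-box overlapped a CCGGAAG or CTTTGAT word.

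Among the 9 snoRNP genes 8 rose and 0 fell, with a median log2 change of 0.57 (range 0.36 to 0.71). The box C/D particles, which place methyl groups on ribose, are built on Nop56 and Nop58 and carry the methyltransferase fibrillarin, Fbl. Nop58 (chromosome 1, 59685006 to 59711510, plus strand) had 119, 136 and 131 FPKM in CHIR99021 replicates 1 to 3, against 76.2, 92.2 and 74.03 FPKM in DMSO replicates 1 to 3. All CHIR99021 libraries were above all DMSO libraries, and Nop58 rose by 0.67 ± 0.11 (SE) on the log2 scale (limma adjusted p = 0.00488). Nop56 (chromosome 2, 130274412 to 130279313, plus strand) had 132, 194 and 151 FPKM with CHIR99021 and 89.9, 115 and 83.3 FPKM with DMSO, with replicate 2 highest in both groups. It rose by 0.71 ± 0.17 (SE, adjusted p = 0.0219), a call lost without CHIR99021 replicate 2 or 3 or DMSO replicate 1 or 3 (adjusted p = 0.0575, 0.0728, 0.062 and 0.0796). Fbl (chromosome 7, 28169748 to 28179269, plus strand) was the most abundant snoRNP gene and had the smallest change of the 9, with 261, 300.1 and 295 FPKM in CHIR99021 and 208, 217 and 244 FPKM in DMSO. The groups did not overlap, and the log2 change was 0.36 ± 0.10 (SE, adjusted p = 0.0378). This call was lost without CHIR99021 replicate 2 or 3 or DMSO replicate 1 or 2 (adjusted p = 0.114, 0.14, 0.109 and 0.0742).

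The box H/ACA particles, which convert uridine to pseudouridine, consist of the enzyme dyskerin (Dkc1) with Nhp2, Nop10 and Gar1, and all 4 genes rose. Nop10 (chromosome 2, 112261969 to 112262898, plus strand) had 184, 198 and 220.5 FPKM in CHIR99021 and 125, 139.7 and 145 FPKM in DMSO, with no overlap. Its log2 change was 0.55 ± 0.10 (SE, adjusted p = 0.00769). Nhp2 (chromosome 11, 51619773 to 51623714, plus strand) had 161, 167 and 172 FPKM in CHIR99021 and 109, 130.5 and 129 FPKM in DMSO. Every CHIR99021 library was above every DMSO library, and Nhp2, whose ETS word is printed above, rose by 0.44 ± 0.09 (SE, adjusted p = 0.0145), or 0.0698 without CHIR99021 replicate 3. The enzyme gene Dkc1, on the X chromosome, averaged 46.4 ± 4.69 FPKM in CHIR99021 and 30.2 ± 4.36 FPKM in DMSO (SD, n = 3 each), and Gar1 40.5 ± 5.14 FPKM in CHIR99021 and 29.99 ± 2.75 FPKM in DMSO. In FPKM, Nop10 and Nhp2 stood above Dkc1 and Gar1 in every library. The calls of Dkc1 and Gar1 were lost without CHIR99021 replicate 2 (adjusted p = 0.0506 and 0.122) and without CHIR99021 replicate 3 (0.0656 and 0.142), that of Gar1 also without DMSO replicate 1 or 3 (0.109 and 0.111). Rrp9, a protein of the U3 snoRNP that takes part in cutting rather than modification, averaged 45.8 ± 4.22 FPKM in CHIR99021 and 30.7 ± 4.38 FPKM in DMSO and rose too (adjusted p = 0.0159, or 0.0562 and 0.0615 without CHIR99021 replicate 2 or 3). Nolc1, a chaperone of snoRNPs, averaged 48.4 ± 8.698 FPKM in CHIR99021 and 32.3 ± 7.37 FPKM in DMSO with overlapping groups and passed only with the block (adjusted p = 0.0588, or 0.000665 with the block and 0.000665 to 0.163 over all settings tried).

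Among the 17 small subunit factors 8 rose and 0 fell, or 14 and 0 with the replicate block, with a median log2 change of 0.45 (range -0.05 to 0.77). Nob1, the endonuclease that makes the final cut at the end of 18S rRNA, had the largest change. Nob1 (chromosome 8, 107412489 to 107425038, minus strand) had 33.7, 36.1 and 33.7 FPKM in CHIR99021 and 21.4, 20.01 and 18.3 FPKM in DMSO. The libraries within a group lay close together and the groups far apart, and Nob1 rose by 0.77 ± 0.09 (SE, adjusted p = 0.00148, the smallest of the 48 genes). Noc4l, the partner of Nop14 in the early particle, had 56.6, 61.3 and 59.9 FPKM in CHIR99021 and 35.3, 40.9 and 42.98 FPKM in DMSO (chromosome 5, 110648419 to 110653382, minus strand). No libraries overlapped, and its log2 change was 0.57 ± 0.10 (SE, adjusted p = 0.00593). Nop14 itself averaged 24.3 ± 4.65 FPKM in CHIR99021 and 17.5 ± 2.37 FPKM in DMSO and passed only with the block (adjusted p = 0.0765, or 0.00273 with it and 0.00273 to 0.193 over all settings tried).

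Imp3 and Imp4 bind the U3 snoRNA together with the protein Mphosph10. Imp3, a single-exon gene (chromosome 9, 56937500 to 56938398, plus strand), was the most abundant small subunit factor, with 151, 129.8 and 159.9 FPKM in CHIR99021 and 113, 90.9 and 97.4 FPKM in DMSO. The groups did not overlap, and in both of them replicate 2 was the lowest, unlike in most of the 48 genes. Imp3 rose by 0.54 ± 0.11 (SE, adjusted p = 0.0143), a call lost without CHIR99021 replicate 3 or DMSO replicate 3 (adjusted p = 0.0674 and 0.0547). Imp4, whose E-box lies farthest from its start of those printed, averaged 43.6 ± 4.84 FPKM in CHIR99021 and 37.6 ± 1.603 FPKM in DMSO with overlapping groups, and passed in neither fit (adjusted p = 0.189, or 0.0726 with the block and 0.0713 to 0.451 over all settings tried).

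Wdr43, Wdr75, Utp15 and Heatr1 belong to the complex that first binds the precursor while Pol I is still transcribing it. Wdr43 (chromosome 17, 71616215 to 71659031, plus strand) had 61.2, 73.5 and 66.6 FPKM in CHIR99021 and 39.2, 52.9 and 43.2 FPKM in DMSO, without overlap. It rose by 0.57 ± 0.13 (SE, adjusted p = 0.0173), or 0.0602, 0.0678 and 0.0637 without CHIR99021 replicate 2, CHIR99021 replicate 3 or DMSO replicate 3. Wdr75 (chromosome 1, 45795501 to 45823613, plus strand) had 25.2, 38.7 and 34.2 FPKM in CHIR99021 and 17.1, 23.3 and 19.8 FPKM in DMSO. Here CHIR99021 replicate 1 was closest to the DMSO libraries, and the log2 change was 0.67 ± 0.17 (SE, adjusted p = 0.031), not called without CHIR99021 replicate 2 or 3 or DMSO replicate 1 or 3 (adjusted p = 0.0926, 0.117, 0.0842 and 0.0895). Utp15 rose as well, and Heatr1 passed only with the block (adjusted p = 0.0801, or 0.00377 with it and 0.00377 to 0.224 over all settings tried). Utp15 was called in 0 of the 6 fits that left out 1 library, with adjusted p from 0.0518 without CHIR99021 replicate 1 to 0.121 without CHIR99021 replicate 2.

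The processing factors Utp18 and Utp20 and the export factor Rrp12 passed only with the block (adjusted p = 0.0657, 0.059 and 0.113 without it). Among factors that join the particle late or ride with it to the cytoplasm, Ltv1 rose (adjusted p = 0.0217), Tsr1 passed only with the block, and Bysl passed in neither fit (21.7 ± 1.55 FPKM in CHIR99021 and 18.6 ± 1.97 FPKM in DMSO, adjusted p = 0.197, or 0.1 with the block and 0.0842 to 0.437 over all settings tried). The helicase gene Ddx10 rose too (adjusted p = 0.0281). The calls of Ltv1 and Ddx10 were lost without CHIR99021 replicate 2 (adjusted p = 0.0749 and 0.0856), CHIR99021 replicate 3 (0.095 and 0.118), DMSO replicate 1 (0.0639 and 0.0724) or DMSO replicate 3 (0.051 and 0.0768), and that of Ddx10 also without DMSO replicate 2 (0.0544). Ddx52, a DEAD-box helicase whose yeast counterpart Rok1 acts on the small subunit, stood apart from the other 47 genes. Ddx52 (chromosome 11, 83942090 to 83963086, plus strand) had 34.4, 33.4 and 35.1 FPKM in CHIR99021 and 37.9, 34.5 and 34.4 FPKM in DMSO. The groups overlapped, with DMSO replicate 1 the highest, and the log2 change was -0.05 ± 0.08 (SE, adjusted p = 0.716), which turned to 0.0049 with upper-quartile and 0.0086 with quantile scaling of the libraries.

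Among the 17 large subunit factors 11 rose and 0 fell, or all 17 with the replicate block, with a median log2 change of 0.46 (range 0.30 to 0.80). Nop2, a cytosine methyltransferase of 28S rRNA whose upstream sequence is printed above, had 41.9, 53.1 and 46.5 FPKM in CHIR99021 and 22.3, 32.9 and 28.3 FPKM in DMSO (chromosome 6, 125131883 to 125144753, plus strand). Replicate 2 was the highest and replicate 1 the lowest in both groups, and the groups did not overlap. Nop2 rose by 0.75 ± 0.15 (SE, adjusted p = 0.0121), or 0.0512 without CHIR99021 replicate 3. Mrto4 holds the place of the stalk protein P0 on the growing subunit, and had 69.7, 85.2 and 81.4 FPKM in CHIR99021 and 43.2, 55.5 and 50.8 FPKM in DMSO (chromosome 4, 139347445 to 139352298, minus strand). All CHIR99021 libraries were above all DMSO libraries, with a log2 change of 0.65 ± 0.12 (SE, adjusted p = 0.00817).

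Pes1, Bop1 and Wdr12 form the PeBoW complex, needed to mature 5.8S and 28S rRNA. Pes1 (chromosome 11, 3963975 to 3980004, plus strand) had 76.4, 82.4 and 84.2 FPKM in CHIR99021 and 61.7, 61.5 and 68.4 FPKM in DMSO, the highest level among the large subunit factors. It rose by 0.34 ± 0.08 (SE, adjusted p = 0.0252), a call lost without CHIR99021 replicate 2 or 3 or DMSO replicate 1 or 2 (adjusted p = 0.0781, 0.105, 0.0721 and 0.0538). Wdr12 averaged 21.6 ± 2.104 FPKM in CHIR99021 and 13.8 ± 0.669 FPKM in DMSO and rose by 0.61 ± 0.10 (SE, adjusted p = 0.00598). Bop1 averaged 54.3 ± 5.24 FPKM in CHIR99021 and 43.9 ± 5.11 FPKM in DMSO and passed only with the block (adjusted p = 0.102, or 0.00597 with it and 0.00597 to 0.258 over all settings tried). The ratio of mean levels was 1.27 for Pes1, 1.56 for Wdr12 and 1.24 for Bop1, and differences between these genes were not tested.

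Gnl3, the GTPase nucleostemin, had the largest SE of the 48 genes. Gnl3 (chromosome 14, 31012433 to 31019089, minus strand) had 33.1, 60.4 and 37.2 FPKM in CHIR99021 and 18.9, 35.6 and 20.002 FPKM in DMSO. Replicate 2 was far above replicates 1 and 3 in both groups, so that DMSO replicate 2 overlapped the CHIR99021 range although each pair showed the same direction. Its log2 change of 0.80 ± 0.28 (SE) was the largest of the 48 genes, with adjusted p = 0.086 without the block, 0.000214 with it and 0.000214 to 0.223 over all settings tried. The related GTPase gene Gnl2 rose (adjusted p = 0.0444), at 25.8 ± 3.27 FPKM in CHIR99021 and 18.8 ± 2.17 FPKM in DMSO. Of the genes Noc2l and Noc3l, whose products carry pre-60S particles through the nucleus, Noc3l rose, at a low level (9.03 ± 0.9898 FPKM in CHIR99021 and 5.89 ± 0.9596 FPKM in DMSO, adjusted p = 0.0316). The calls of Gnl2 and Noc3l were lost without CHIR99021 replicate 2 (adjusted p = 0.129 and 0.102), CHIR99021 replicate 3 (0.129 and 0.107), DMSO replicate 1 (0.118 and 0.0823) or DMSO replicate 3 (0.121 and 0.0895). Noc2l (chromosome 4, 156236010 to 156247616, plus strand) had 54.6, 75.99 and 65.9 FPKM in CHIR99021 and 41.7, 55.03 and 50.96 FPKM in DMSO. CHIR99021 replicate 1 lay within the DMSO range, and Noc2l passed only with the block (log2 change 0.40 ± 0.15 SE, adjusted p = 0.0904, or 0.00192 with it and 0.00192 to 0.235 over all settings tried).

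Nip7, an early pre-60S factor, had the smallest change among the large subunit genes. It lies at chromosome 8, 107056877 to 107060928 on the plus strand and had 28.8, 28.8 and 29.6 FPKM in CHIR99021 and 19.5, 25.3 and 26.1 FPKM in DMSO. The CHIR99021 libraries lay within a narrow range just above the DMSO libraries, and Nip7 passed only with the block (log2 change 0.30 ± 0.12 SE, adjusted p = 0.114, or 0.0355 with it and 0.0355 to 0.266 over all settings tried). The remaining large subunit factors that rose were Rrp15, Rrp1b, Nop16, the helicase gene Ddx18 and Brix1, with log2 changes from 0.32 to 0.61. Each of these lost its call without CHIR99021 replicate 2 and without CHIR99021 replicate 3, with adjusted p from 0.0557 to 0.128. Without DMSO replicate 1 or 3 the calls of Rrp1b, Nop16, Ddx18 and Brix1 were lost as well (adjusted p from 0.0505 to 0.109), without CHIR99021 replicate 1 those of Nop16 and Brix1 (0.0529 and 0.0828), and without DMSO replicate 2 that of Brix1 (0.065). Rrs1, a single-exon gene whose product helps to dock the 5S rRNA particle, and Ebna1bp2 passed only with the block (adjusted p = 0.0674 and 0.0655 without it).

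**Figure D4:**
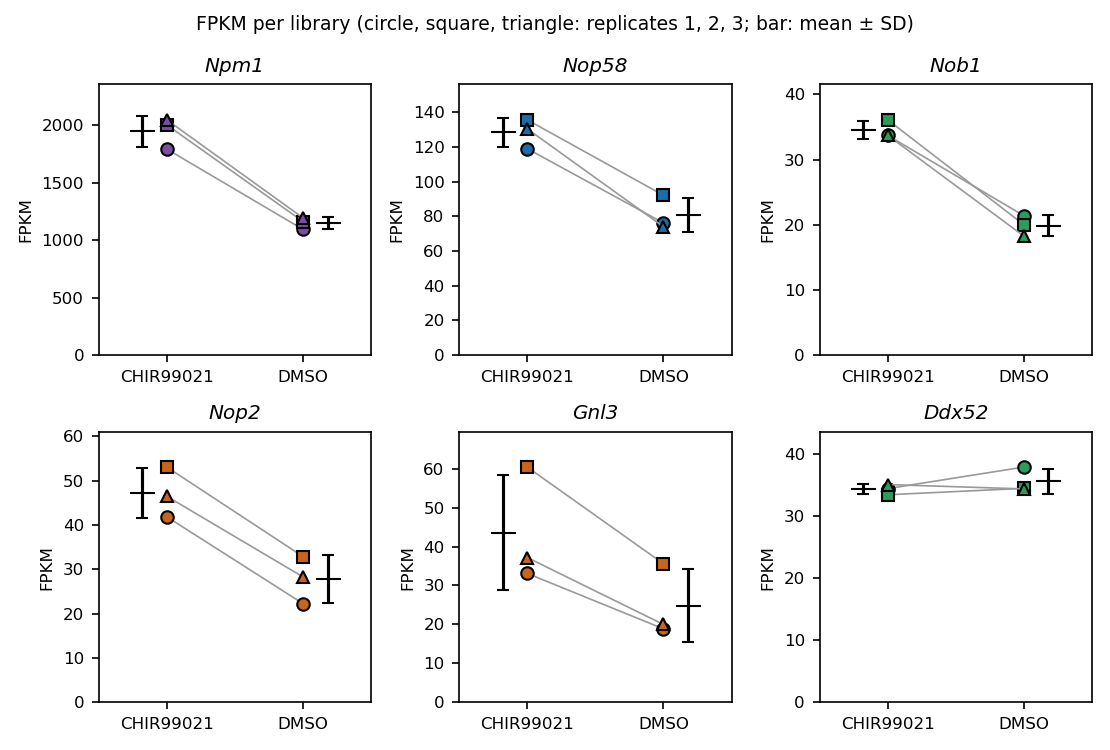
FPKM (vertical axes, from 0) in the 3 CHIR99021 and 3 DMSO libraries for 6 genes, with lines joining libraries of the same replicate number and bars giving the mean ± SD. Npm1, Nop58, Nob1 and Nop2 are separated between groups, Gnl3 overlaps, with replicate 2 high in both groups, and Ddx52 lies at 33.4 to 35.1 FPKM in CHIR99021 and 34.4 to 37.9 FPKM in DMSO.

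Of the 5 Pol I and general nucleolar genes 4 rose and 0 fell, or all 5 with the block, with a median log2 change of 0.59 (range 0.54 to 0.76). Npm1, the histone chaperone nucleophosmin that fills the outer layer of the nucleolus, was the most abundant of the 48 genes. Npm1 (chromosome 11, 33152498 to 33163206, minus strand) had 1792, 2003 and 2047 FPKM in CHIR99021 and 1094, 1162 and 1194 FPKM in DMSO. The spread within each group was small beside the gap between them, and Npm1 rose by 0.76 ± 0.11 (SE, adjusted p = 0.00277). Nucleolin, Ncl, which binds the precursor RNA, had 186, 237 and 228 FPKM in CHIR99021 and 126, 159 and 147 FPKM in DMSO (chromosome 1, 86344719 to 86359455, minus strand). No overlap was seen, and Ncl rose by 0.59 ± 0.13 (SE, adjusted p = 0.0155), or 0.0547 and 0.0728 without CHIR99021 replicate 2 or 3. Ddx21, a helicase that in human cells links Pol I transcription to rRNA processing, had 69.99, 101 and 91.5 FPKM in CHIR99021 and 47.6, 67.6 and 60.6 FPKM in DMSO (chromosome 10, 62580247 to 62602298, minus strand). Its CHIR99021 replicate 1 was only just above DMSO replicate 2, and its log2 change of 0.57 ± 0.17 (SE) was near the threshold (adjusted p = 0.0485, over all settings tried 0.000396 to 0.159). The call of Ddx21 was lost without CHIR99021 replicate 2 or 3 or DMSO replicate 1 or 3 (adjusted p = 0.138, 0.159, 0.119 and 0.104).

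Polr1a and Polr1b encode the largest subunits of Pol I, which form its active site. Polr1b (chromosome 2, 129100996 to 129126595, plus strand) had 17.7, 26.99 and 22.04 FPKM in CHIR99021 and 10.8, 14.9 and 14.6 FPKM in DMSO. The groups did not overlap, and Polr1b rose by 0.68 ± 0.18 (SE, adjusted p = 0.0317), a call lost without CHIR99021 replicate 2 or 3 or DMSO replicate 1 or 3 (adjusted p = 0.0913, 0.107, 0.0786 and 0.0665). Polr1a (chromosome 6, 71909053 to 71979360, plus strand) had 15.4, 19.5 and 17.4 FPKM in CHIR99021 and 8.88, 13.7 and 12.99 FPKM in DMSO. Each CHIR99021 library was above each DMSO library, and Polr1a passed only with the block (log2 change 0.54 ± 0.17 SE, adjusted p = 0.0578, or 0.00359 with it and 0.00359 to 0.161 over all settings tried). The median within-replicate difference of the 5 genes was 0.67, 0.58 and 0.59 on the log2 scale in replicates 1, 2 and 3.

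**Figure D5:**
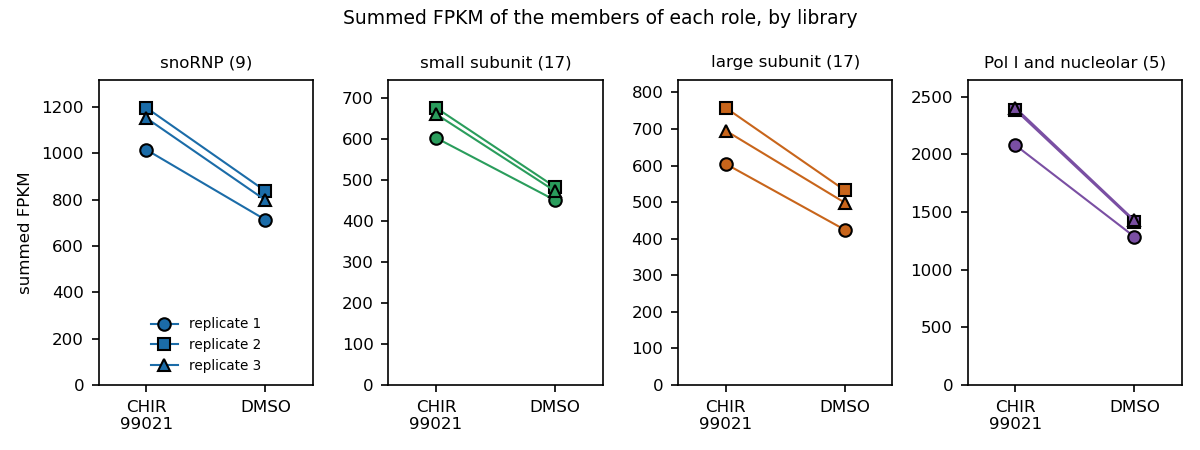
Summed FPKM of the genes of each role (number of genes in brackets) in the CHIR99021 libraries (left of each panel) and the DMSO libraries (right), with lines joining libraries of the same replicate number. In every role and every replicate the CHIR99021 library is higher, and the Pol I and nucleolar sum is mostly Npm1.

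Set side by side, the roles had similar medians, at 0.57 for snoRNP genes, 0.45 for small subunit, 0.46 for large subunit and 0.59 for Pol I and nucleolar genes, and differences between roles were not tested. The confidence limits that Cufflinks gives for a single library cover the error of estimating a level within that library and not the spread between cultures, so they describe pairs of libraries and are no test of the treatment. The lower limit in the CHIR99021 library was above the upper limit in the DMSO library of the same number for 42, 45 and 40 of the 48 genes in replicates 1, 2 and 3. The shares of all tested genes were 14.4%, 16.1% and 14.4%. In all 3 replicates 37 of the 48 genes met this, and at most 14.4% of all tested genes can have done so, the share in replicate 1 alone. All 5 Pol I and nucleolar genes, 8 of 9 snoRNP genes, 13 of 17 large subunit factors and 11 of 17 small subunit factors met this in all 3 replicates.

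A list of 104 other ribosome biogenesis genes was chosen for their known roles but, like the 48, with earlier results of these data known. All 104 were found in the tables, 10 of them under older symbols, and all were tested. Of these, 26 rose and 3 fell. With the block 63 rose and 6 fell, where 18.4% of all tested genes rose and 24.4% fell. With upper-quartile scaling 43 rose and 1 fell (11.0% of all tested genes rose), and with quantile scaling 46 rose and 1 fell (12.2% of all tested genes rose). Their median log2 change of 0.29 was smaller than that of the 48 genes. The number that rose was 9 of 36 small subunit factors, 11 of 43 large subunit factors, 2 of 10 snoRNP assembly factors and 4 of 15 genes of Pol I transcription, against 8.13% of all tested genes. The total of 26 was 9 without CHIR99021 replicate 2, 9 without CHIR99021 replicate 3, 13 without DMSO replicate 1 and 13 without DMSO replicate 3, where 4.35%, 3.25%, 5.06% and 5.01% of all tested genes were called higher. Among the small subunit factors, Wdr36 averaged 32.7 ± 2.82 FPKM in CHIR99021 and 22.9 ± 0.984 FPKM in DMSO (adjusted p = 0.00917) and Utp4, listed as Cirh1a, 53.2 ± 3.296 FPKM in CHIR99021 and 34.95 ± 4.32 FPKM in DMSO (adjusted p = 0.00739). Among the large subunit factors, Rsl1d1 averaged 85.5 ± 7.199 FPKM in CHIR99021 and 54.6 ± 3.22 FPKM in DMSO (adjusted p = 0.00325), and Rpf2, which docks the 5S particle together with Rrs1, 33.2 ± 2.86 FPKM in CHIR99021 and 22.3 ± 0.824 FPKM in DMSO (adjusted p = 0.00606).

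The snoRNP assembly factors that rose were Ruvbl2, an ATPase that helps to assemble box C/D particles (109 ± 11.3 FPKM in CHIR99021 and 79.3 ± 6.81 FPKM in DMSO, adjusted p = 0.0198), and Naf1, which precedes Gar1 in H/ACA particles (13.9 ± 2.23 FPKM in CHIR99021 and 8.45 ± 1.88 FPKM in DMSO, adjusted p = 0.0351). Pih1d1, a part of the R2TP chaperone complex with Ruvbl2, fell to 27.3, 23.8 and 21.9 FPKM in CHIR99021, against 40.8, 33.3 and 39.1 FPKM in DMSO (log2 change -0.61 ± 0.12 SE, adjusted p = 0.00933). It thus moved opposite to its partner Ruvbl2, with no overlap between groups in either gene. In Pol I transcription, Rrn3, the factor that recruits Pol I to its promoter, averaged 19.7 ± 0.725 FPKM in CHIR99021 and 14.2 ± 0.9395 FPKM in DMSO and rose (adjusted p = 0.0132), as did the DNA topoisomerase gene Top1 (82.2 ± 7.001 FPKM in CHIR99021 and 46.7 ± 3.75 FPKM in DMSO, adjusted p = 0.00166). Sirt7, a nucleolar deacetylase, fell (45.9 ± 3.9003 FPKM in CHIR99021 and 60.7 ± 7.02 FPKM in DMSO, adjusted p = 0.0402), as did Taf1b, a subunit of the promoter selectivity factor of Pol I (8.75 ± 0.508 FPKM in CHIR99021 and 11.3 ± 0.431 FPKM in DMSO, adjusted p = 0.048). Of these 3 falls, that of Pih1d1 passed in all 6 fits that left out 1 library, that of Sirt7 in 1, the fit without DMSO replicate 3, and that of Taf1b in 0 (highest adjusted p without CHIR99021 replicate 3, 0.149 for Sirt7 and 0.166 for Taf1b). With upper-quartile scaling Sirt7 and Taf1b had adjusted p of 0.0643 and 0.0809, within ranges over all settings of 0.00347 to 0.149 and 0.0116 to 0.166. Among the genes that rose, the call of Rrn3 was lost without CHIR99021 replicate 3 (0.0639), that of Ruvbl2 without CHIR99021 replicate 2 or 3 or DMSO replicate 1 (0.0562, 0.0809 and 0.0587), and that of Naf1 without any of these or DMSO replicate 2 (0.108, 0.114, 0.0736 and 0.0598).

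By the GENCODE M21 annotation (GRCm38, the sequence of mm10), 7 of the 48 genes carry annotated snoRNA genes within their span and on their strand, 21 in all: Nop56 has 5, Nop58 has 4, Gnl3, Ncl and Wdr43 have 3 each, Tsr1 has 2 and Dkc1 has 1. The 48 genes lie on 17 chromosomes, 8 of them on chromosome 1. Exons of 18 genes overlap those of another gene on the opposite strand. Among the genes given in full these are Nop56 (with Idh3b), Nhp2 (Rmnd5b), Gnl3 (Pbrm1), Noc2l (Samd11), Pes1, Wdr43 and Polr1a. Over the 6 libraries Idh3b averaged 107 FPKM beside Nop56 at 128 FPKM, and Rmnd5b 20.4 FPKM beside Nhp2 at 145 FPKM. Pbrm1 averaged 9.75 FPKM beside Gnl3 at 34.2 FPKM, and Samd11 8.85 FPKM beside Noc2l at 57.4 FPKM. Elsewhere, Ccnd3 averaged 54.5 FPKM beside Bysl at 20.1 FPKM, and Mpp1 25.7 FPKM beside Dkc1 at 38.3 FPKM. No source used here gives the strand setting of the counting, so reads of such pairs may be mixed. A further uncertainty is near-identical sequence: transcripts of 12 of the 48 genes match at least 300 bases of another annotated gene at 95% identity or more. For Bysl (Ccnd3), Noc2l (Samd11) and Tsr1 (Srr) this match is with the gene whose exons overlap theirs on the opposite strand, at 100% identity, and not with a separate copy. Others of the 12 are Npm1 with 4 processed pseudogenes, Nop56 with 3, and Mrto4, Pes1, Wdr12 and Ddx18 with 2 copies each.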

How the data were processed

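Per the file headers, the authors deposited 1 table per library with a gene FPKM, its lower and upper confidence limits and a status, which was OK throughout. Cutadapt 1.12, TopHat2 2.1.1, Cufflinks 2.2.1 and mm10 are named in the submitters' processing notes, and the kit was TruSeq Stranded mRNA, per the labels' protocols. No source used here gives the annotation, strand setting or fragment numbers. FPKM keep no count of fragments, so no count model was used. For the median of the 48 genes the upper Cufflinks limit lay 7.38% to 8.4% above the FPKM in CHIR99021 libraries. In DMSO libraries, where most of these genes had lower levels, it lay 8.65% to 11.5% above. The width of the limits depends on the level of a gene as well as on depth, and the 2 were not separated. Summed FPKM was 556644 to 616427 in CHIR99021 and 527290 to 617449 in DMSO.

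The 10096 genes whose mean over the 6 libraries reached 1 FPKM were tested on log2(FPKM + 1), a scale that understates the change of low genes. The test was limma 3.58.1 in R 4.3.3 (variance trend, two-sided, Benjamini-Hochberg, threshold 0.05). It was first run on simulated libraries drawn independently of each other, so that run cannot show how deviations shared within a replicate number affect the test. Folds are ratios of mean FPKM. Tables, promoter searches and figures used Python 3.11.15, pandas 2.3.3, numpy 2.4.6 and matplotlib 3.10.9, and copies were sought with blastn 2.17.0. Libraries of the same replicate number shared deviations from their group means (correlations 0.535, 0.490 and 0.517 across genes, and -0.352 to -0.140 between different numbers), so the numbers pair the libraries, which the labels call biological triplicates without naming cultures or animals, and p-values measure the spread between these samples. At most 0.228% of values were identical in any pair of libraries.

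The members, lists and roles were chosen with earlier results of these data known, and the promoter words after the tables were at hand, so no list was tested as a set. Values in every library are given, per role, for the 3 most abundant genes, the 2 with the largest and the 1 with the smallest absolute log2 change. Of the 104 other genes, the 2 called genes with the smallest adjusted p per sublist and direction are named. Other settings were pseudocounts of 0.1 and 5, no filter or a mean of 5 FPKM, upper-quartile and quantile scaling, no variance trend, the replicate block, and leaving out each library.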

Additional observations from a re-analysis of the deposited data

How the results depend on the processing

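No member was called lower in any setting, and 47 of the 48 genes kept a positive change in all of them. Ddx52 turned to 0.0049 with upper-quartile and 0.0086 with quantile scaling. With the replicate block, 4321 of all genes changed, and 18.4% of all tested genes were called higher and 24.4% lower. Calls higher were 14 among small subunit, 17 among large subunit and 63 among other ribosome biogenesis genes, where 6 more were lower. The block ended no member's call. Without the filter on low values, 20 members were higher, with 5 snoRNP, 7 large subunit and 2 Pol I and nucleolar genes among them, and 1 other gene was lower, where 3.85% of all genes tested were called higher (8.13% with the filter). That setting changes both the number of genes adjusted for and the variance trend, and the cause was not tested. Of the 31 members called, 11 lost the call there and 8 without the variance trend, which left 6 large subunit genes higher. Without the trend 6.80% of all tested genes were called higher. Upper-quartile scaling gave a median member change of 0.59, with 43 other genes higher and 1 lower. Quantile scaling gave 0.59, 14 small subunit genes higher, and 46 other genes higher and 1 lower. With these 2 scalings 11.0% and 12.2% of all tested genes were called higher. A pseudocount of 5 gave a median of 0.43, as it shrinks changes.

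Leaving out 1 library at a time gave 1061 to 1983 genes changed, with 3.25% to 7.01% of all tested genes called higher. In these fits 7 to 32 members were higher, and the median member change was 0.39 to 0.60. Members higher were 2 to 9 for snoRNP, 2 to 9 for small subunit, 2 to 11 for large subunit and 1 to 5 for Pol I and nucleolar genes, and the other genes had 9 to 25 higher and 1 to 3 lower. The change of Myc ran from -0.044 to 0.21 in them, negative without CHIR99021 replicate 2, DMSO replicate 2 or DMSO replicate 3. These fits held fewer libraries and left 1 replicate number in 1 group only, and the cause of these shifts was not tested. FPKM hold no fragment counts, so how far depth sets the spread between libraries is not known.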
